A study of Homo sapiens with 6 samples.

Results

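Glycolysis turns glucose into pyruvate, and the hypoxia response, run by the HIF transcription factors, raises many glycolytic genes together with genes of acid balance and of mitochondrial turnover. HIF is held low by prolyl hydroxylases that use oxygen and mark it for destruction through the VHL protein. Squamous carcinomas often show a high use of glucose and a hypoxia response. The genes described here are 10 chosen by name, SLC2A1, HK2, ALDOA, PGK1, ENO1, LDHA, PDK1, CA9, BNIP3 and NDRG1, of 18757 genes named on the array. Of the 10, 9 had a probe named for them alone, with 12 such probes among 53103 gene probes, and 8 had a good spot both on the control array and on each siRNA array. ALDOA had only probes that the annotation gives to more than 1 gene, and CA9 was near background on the control array.

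RNA from HSC3, an established line from a human tongue squamous cell carcinoma, was labelled with Cy5 and hybridized to 6 one-colour CodeLink whole genome arrays. The groups were control cells and cells given siRNA against MIA, MIA2, TANGO, MATE2 or LEMD1, with 1 array each, and all are of the same cell line with no other named treatment. The control is given a control siRNA in the deposited design and no treatment in the microarray methods of the paper. The siRNA methods of the paper name a negative control siRNA as control. The time from transfection to RNA extraction is not given in the sources used here. Each ratio therefore sets 1 array against 1 array, without replicates, so a ratio has no error and was not tested, and the 5 ratios of a gene share the control array. The values are spot intensities above local background, set to 1 common distribution over the 6 arrays by quantile normalization, and are called the normalized signal. A gene was called changed where its signal differed by at least 2-fold, a log2 ratio of 1 in size. In RNA from whole cultures, fewer cells of a type and less RNA per cell cannot be told apart.

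The data bore out the labels only in part, so the arrays are named by their labels. The probe of SLC47A2, of which MATE2 is another name, had a signal of 1509.8 on control and 79.6 on the array labelled MATE2 siRNA, 19.0-fold lower, and it was also at 58.9 on the array labelled TANGO siRNA. LEMD1 was near background on the arrays labelled LEMD1 and MIA2 siRNA, at least 10.1-fold and 6.57-fold below control, and it was 11.5-fold above control on the array labelled TANGO siRNA and 3.64-fold above it on that labelled MATE2 siRNA. Of 2 MIA2 probes, one was at 169 on its own array and 155 on control and the other was near background on all 6 arrays, so it shows nothing of the knockdown. MIA was near background on all 6 arrays, and TANGO, which is MIA3, has no named probe. Of 10 squamous markers, 8 had a probe and all 8 were good on every array, with a summed signal between 18097 on the array labelled TANGO siRNA and 39657 on that labelled LEMD1 siRNA. The summed signal was 393 to 695 for 6 fibroblast markers, 404 to 612 for 5 endothelial markers and 193 to 336 for the 5 of 6 leukocyte markers with a probe, and DCN, COL3A1, KDR, CDH5, TEK, PTPRC and ITGAM were near background on all 6 arrays. The part of such shifts in the results was not tested. The number of good gene spots was 27545 to 30628 per array.

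On the arrays labelled MIA2 and LEMD1 siRNA 7 of the 8 measured members lay above control. So did 6161 of 12483 and 6143 of 12955 named genes with good spots. On the array labelled MIA siRNA 7 of the 8 lay below control, as did 7242 of 12802 named genes. On the array labelled TANGO siRNA 6 of the 8 lay above control, as did 6026 of 12553 named genes. There the glucose transporter gene SLC2A1 and the stress gene NDRG1 were several-fold higher, while the glycolytic enzymes stayed within 2-fold. On the array labelled MATE2 siRNA 6 of the 8 lay below control, as did 6576 of 12593 named genes. The lactate dehydrogenase gene LDHA and the mitophagy gene BNIP3 were at least 2-fold lower there, and NDRG1 was at least 2-fold higher. The array labelled MIA siRNA held no member 2-fold from control. The members changed numbered 0 of 8 on the array labelled MIA siRNA, where 0.656% of all named genes with good spots were changed, 1 of 8 on MIA2 (8.5%), 2 of 8 on TANGO (14.7%), 3 of 8 on MATE2 (17.6%) and 1 of 8 on LEMD1 (6.01%). With 8 genes these counts are small, and the shares of all genes stand beside them as the background. Split by direction, genes above and below control were 0.391% and 0.266% of all on MIA, 3.3% and 5.2% on MIA2, 5.57% and 9.09% on TANGO, 5.93% and 11.7% on MATE2, and 2.03% and 3.98% on LEMD1. The median log2 ratio of the 8 members was -0.099, 0.52, 0.24, -0.69 and 0.46 in the same order of arrays. The median over all named genes was -0.041, -0.0071, -0.031, -0.033 and -0.023. The robust SD of the log2 ratio over all named genes was 0.25, 0.53, 0.61, 0.65 and 0.42, and it holds real changes as well as noise.

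**Figure D1:**
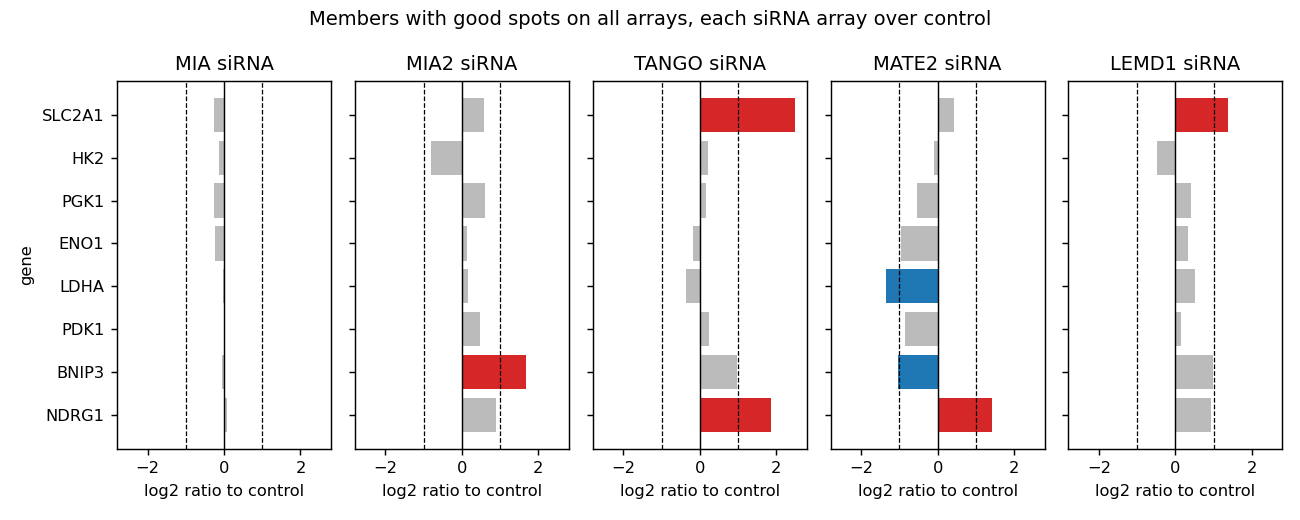
Log2 ratio to control (x axis) of the 8 members with a good spot on every array (y axis), 1 panel per siRNA array. Bars are red at least 2-fold above control, blue at least 2-fold below and grey between, with the 2-fold limits dashed. SLC2A1 reaches 2.50 on the array labelled TANGO siRNA, and LDHA -1.35 on that labelled MATE2 siRNA.

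Promoter sequence is shown for the members that were called changed and have an entry in the RefSeq table of GRCh38.p14 promoters, SLC2A1, LDHA and BNIP3, since HIF is known to bind short motifs with the core letters ACGTG or GCGTG. Each line gives the 250 bases before a transcription start, 5′ to 3′ on the strand of the gene, with matches to ACGTG or GCGTG on either strand in capitals. A match is a description and not a binding site. No NDRG1 window is shown.
SLC2A1, chr1:42958869-42959118, minus strand: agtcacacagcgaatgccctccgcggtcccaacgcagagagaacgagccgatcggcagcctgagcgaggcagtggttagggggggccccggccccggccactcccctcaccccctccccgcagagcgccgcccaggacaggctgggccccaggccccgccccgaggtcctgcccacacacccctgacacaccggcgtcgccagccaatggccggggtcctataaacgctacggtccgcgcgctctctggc
LDHA, chr11:18394313-18394562, plus strand: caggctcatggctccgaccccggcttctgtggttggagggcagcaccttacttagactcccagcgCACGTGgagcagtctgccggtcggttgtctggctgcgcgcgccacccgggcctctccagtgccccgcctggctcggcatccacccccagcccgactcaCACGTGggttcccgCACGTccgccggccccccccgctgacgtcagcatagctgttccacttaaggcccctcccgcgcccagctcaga
BNIP3, chr10:131981924-131982173, minus strand: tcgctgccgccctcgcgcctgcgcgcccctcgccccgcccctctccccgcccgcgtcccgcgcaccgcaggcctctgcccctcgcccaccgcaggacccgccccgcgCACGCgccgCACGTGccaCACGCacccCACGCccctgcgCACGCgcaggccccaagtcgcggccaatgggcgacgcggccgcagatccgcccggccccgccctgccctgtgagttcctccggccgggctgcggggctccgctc
The SLC2A1 window had no match, the LDHA window had 3 stretches in capitals and the BNIP3 window had 5. The letters CACGTG read as ACGTG on both strands and were counted as 1 stretch. A second LDHA window, at chr11:18396101-18396350, had 1 match. Of 14 windows of 9 members, 12 had a match to either motif, 10 to ACGTG and 6 to GCGTG. Among all 35116 windows of the table, 43.2% held either motif, 18.5% ACGTG and 32.2% GCGTG. SLC2A1, the member with the largest ratio to control, had no match in its 250 bases, and nothing follows from this about sites elsewhere.

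Glucose enters the cell through SLC2A1, the transporter GLUT1, whose normalized signal was 370.0 on control, 311 on the array labelled MIA siRNA, 549.6 on MIA2, 2086 on TANGO, 495 on MATE2 and 953 on LEMD1. It was 5.64-fold above control on the array labelled TANGO siRNA and 2.58-fold above it on that labelled LEMD1 siRNA. The TANGO value was 2.19-fold above the next highest array, and the MIA and control values lay lowest and close together. HK2, the hexokinase that traps glucose as its phosphate, was at 305 on control, 278 on MIA, 175 on MIA2, 355 on TANGO, 285 on MATE2 and 217 on LEMD1. By the brightest probes, HK2 was the single measured member below control on the arrays labelled MIA2 and LEMD1 siRNA, by 1.74-fold and 1.41-fold. Its second probe was near background on control and on the array labelled MIA2 siRNA and between 36.2 and 49.8 on the rest. On LEMD1 that dim probe was at least 1.43-fold above control, opposite to the brighter one.

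The middle and late steps of glycolysis were measured by PGK1 and ENO1. PGK1, a kinase that makes ATP, was at 2707 on control, 2253 on MIA, 4103 on MIA2, 3056 on TANGO, 1867 on MATE2 and 3587 on LEMD1. ENO1, the enolase that forms phosphoenolpyruvate, was at 16779.6 on control, 14205.5 on MIA, 18468 on MIA2, 14792 on TANGO, 8700.2 on MATE2 and 20978.5 on LEMD1. Both genes were lowest on the array labelled MATE2 siRNA, by 1.45-fold and 1.93-fold against control, and both were above control on the arrays labelled MIA2 and LEMD1 siRNA, all by less than 2-fold. None of the spots of the 12 member probes was flagged as saturated.

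The aldolase ALDOA, which splits fructose bisphosphate, has no probe of its own here. A probe annotated to both ALDOA and its pseudogene ALDOAP2 was at 544 on control, 509 on MIA, 779 on MIA2, 325 on TANGO, 621 on MATE2 and 529 on LEMD1. It was 1.68-fold below control on the array labelled TANGO siRNA and 1.14-fold above it on MATE2, so its order differed from that of PGK1 and ENO1. This probe was kept out of the counts of members. The remaining 3 shared probes, annotated also to MRPL32, TP53BP1 or BID, were not read as members.

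Pyruvate is turned to lactate by LDHA or enters mitochondria, where PDK1 holds pyruvate dehydrogenase inactive. LDHA was at 8905 on control, 8700.2 on MIA, 9993 on MIA2, 6879 on TANGO, 3502 on MATE2 and 12649 on LEMD1, so it was 2.54-fold below control on the array labelled MATE2 siRNA. Its second, dimmer probe was at 175, 159, 208, 88.4, 122 and 217 in the same order. That probe was 1.43-fold below control on MATE2 and 1.98-fold below it on TANGO, so the probes put the lowest LDHA level on different arrays, and neither was above control on either array. PDK1 was at 83.7 on control, 83.0 on MIA, 115 on MIA2, 99.8 on TANGO, 46.6 on MATE2 and 93.1 on LEMD1. It was 1.80-fold below control on the array labelled MATE2 siRNA, where the lowest good spot of the array was at 31.4, and within 1.38-fold of control on the others.

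**Figure D2:**
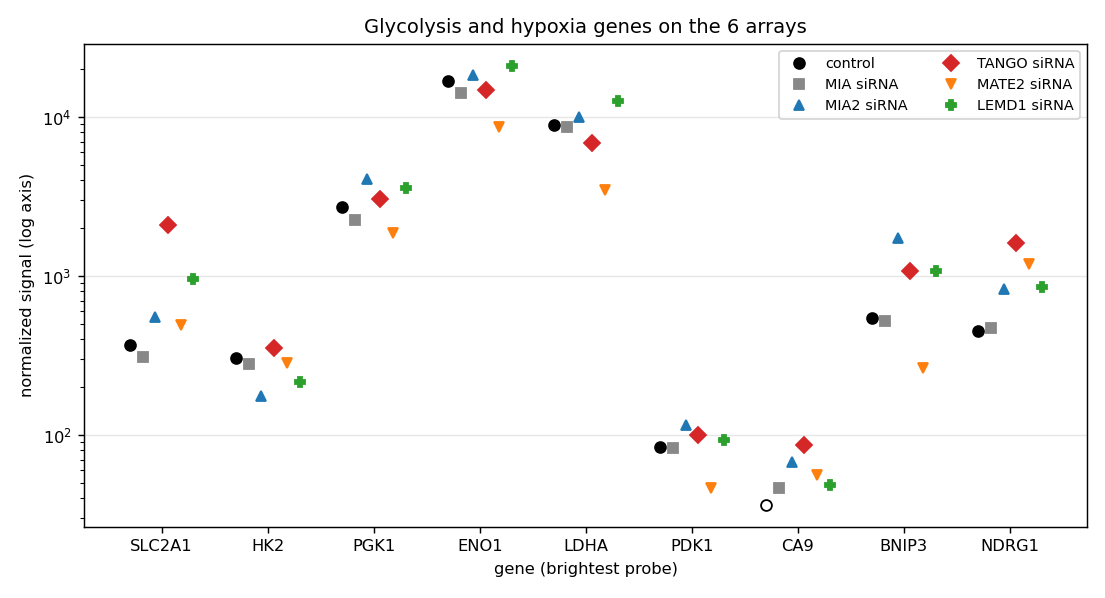
Normalized signal (y axis, log scale) of the brightest probe of the 9 members with a probe of their own (x axis) on the 6 arrays, 1 symbol per array. Open symbols are spots near background, and levels should be compared within a gene only. LDHA, ENO1, PGK1, PDK1 and BNIP3 are lowest on the array labelled MATE2 siRNA, and SLC2A1, HK2, CA9 and NDRG1 are highest on that labelled TANGO siRNA.

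CA9, BNIP3 and NDRG1 are hypoxia genes outside glycolysis. CA9, a carbonic anhydrase at the cell surface that helps to export acid, was near background on control at 36.4 and had good spots at 46.5 on MIA, 67.9 on MIA2, 86.8 on TANGO, 56.3 on MATE2 and 48.7 on LEMD1. Against the control signal taken as its upper bound, CA9 was at least 2.39-fold higher on the array labelled TANGO siRNA, at least 1.87-fold on MIA2 and at least 1.28-fold to 1.55-fold on the others. These are dim spots, and the level in control cells was not measured above background.

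BNIP3, which serves the removal of mitochondria by autophagy, was at 546 on control, 524 on MIA, 1737 on MIA2, 1068 on TANGO, 264 on MATE2 and 1080.3 on LEMD1. It was 3.18-fold above control on the array labelled MIA2 siRNA and 2.07-fold below it on that labelled MATE2 siRNA. The values on TANGO and LEMD1, 1.96-fold and 1.98-fold above control, lay just short of the 2-fold call by this probe. On LEMD1 the log2 ratio was 0.98 by this probe and 0.27 as the mean of both probes. A second BNIP3 probe, named from another transcript, was at 77.2 on control, 35.7 on MATE2 and 57.1 on LEMD1 and near background on the rest. It was 2.16-fold below control on MATE2, as the brighter probe was, and at least 2.37-fold below it on MIA. It was also at least 1.96-fold below control on MIA2, at least 1.89-fold below it on TANGO and 1.35-fold below it on LEMD1, where the brighter probe was above control. The rise of BNIP3 therefore rests on the brighter probe.

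NDRG1, a gene induced by hypoxia and by differentiation, was at 448 on control, 473 on MIA, 826 on MIA2, 1618.5 on TANGO, 1199 on MATE2 and 849 on LEMD1. It was 3.61-fold above control on TANGO, 2.68-fold on MATE2, 1.90-fold on LEMD1 and 1.84-fold on MIA2, and 1.06-fold on MIA. Of the 8 measured members, NDRG1 was the one at least 2-fold above control on both the arrays labelled TANGO and MATE2 siRNA.

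The arrays labelled TANGO and MATE2 siRNA, on both of which the SLC47A2 probe was low, were set directly against each other. This comparison was chosen after the values were seen and does not use the control array. All 9 members with a probe of their own were higher on TANGO by their brighter probe, as were 6775 of all 12745 named genes with good spots on both arrays. The TANGO signal was 4.21-fold the MATE2 signal for SLC2A1, 4.04-fold for BNIP3, 2.14-fold for PDK1, 1.96-fold for LDHA, 1.70-fold for ENO1, 1.64-fold for PGK1, 1.54-fold for CA9, 1.35-fold for NDRG1 and 1.25-fold for HK2. At least 2-fold were 3 of 9, beside 6.71% of all named genes that were at least 2-fold higher on TANGO and 5.88% that were at least 2-fold lower. The median log2 ratio of the 9 was 0.77, and that of all named genes 0.043. The dimmer probes of LDHA and HK2 and the shared ALDOA probe went the other way, with log2 ratios of -0.47, -0.35 and -0.93.

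**Figure D3:**
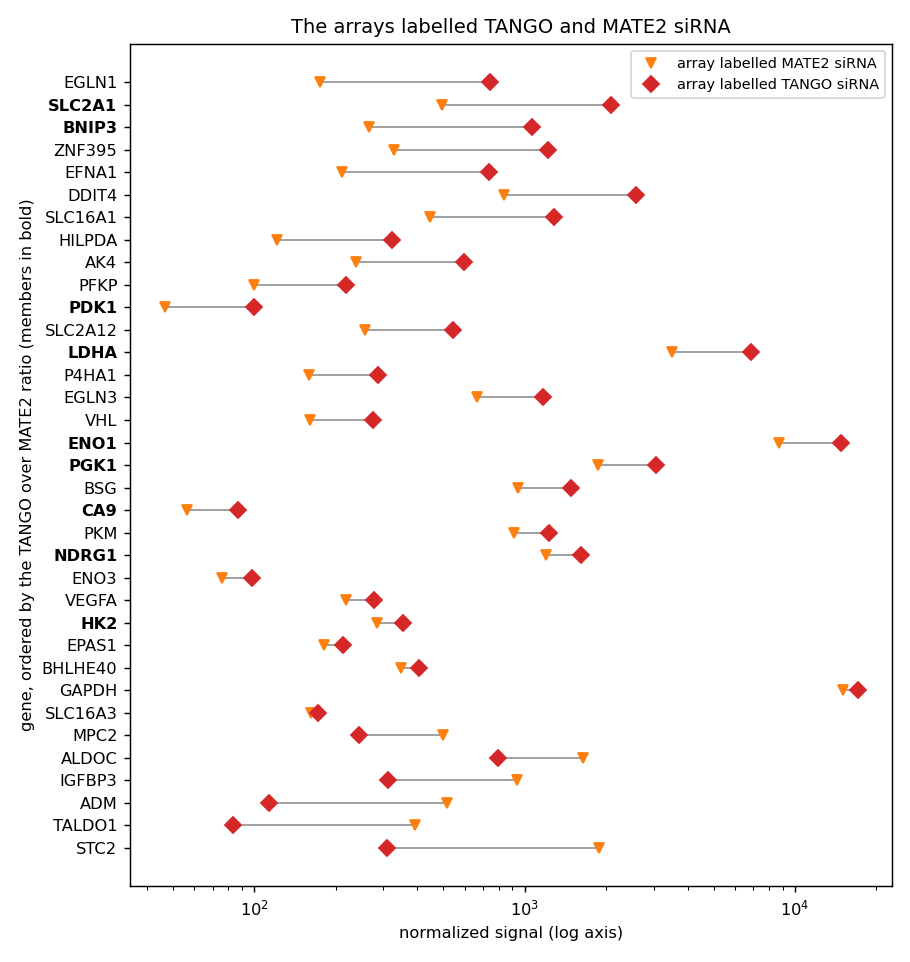
Normalized signal (x axis, log scale) on the arrays labelled MATE2 siRNA (orange triangles) and TANGO siRNA (red diamonds) for the members (bold) and other named pathway genes (y axis), ordered by the TANGO over MATE2 ratio of the brightest probe. Grey lines join the values of a gene, and all bold genes have the diamond to the right, from 1.25-fold for HK2 to 4.21-fold for SLC2A1.

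The other genes of these pathways were taken from 6 lists of 103 genes, 93 of them with a named probe. Those at least 2-fold from control were 0 of 80 with good spots on the array labelled MIA siRNA, 8 of 76 on MIA2, 13 of 76 on TANGO, 14 of 80 on MATE2 and 4 of 77 on LEMD1, against the shares of all genes given above. Their median log2 ratio was -0.13, 0.13, 0.0049, -0.12 and 0.059.

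Of 21 other glycolytic enzymes, none was 2-fold from control on the arrays labelled MIA, MIA2, TANGO or LEMD1 siRNA. On MATE2 3 of 17 measured were, beside 17.6% of all named genes. There ALDOC, a brain-type aldolase, was higher, at 1637 against 408 on control, and PFKP, a phosphofructokinase, was lower, at 99.4 against 392. ENO3, the muscle enolase, was lower too, at 76.0 against 171. The second PFKP probe, at 49.6 on control, had a log2 ratio of 0.36. PKM, the pyruvate kinase gene, was at 1542 on control and 911 on MATE2, a log2 ratio of -0.76. GAPDH was saturated on the arrays labelled MIA2 and LEMD1 siRNA and has no ratio there, and its log2 ratio was -0.45 on TANGO and -0.63 on MATE2. The median log2 ratio of the list was -0.14 on MIA, 0.12 on MIA2, -0.16 on TANGO, -0.24 on MATE2 and 0.055 on LEMD1.

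In the transport of glucose and lactate, 1 gene was at least 2-fold lower on 4 arrays. SLC16A3, the lactate exporter MCT4, was at 655 on control and 549.8 on MIA, but at 138 on MIA2, 172 on TANGO, 162 on MATE2 and 215 on LEMD1. On these 4 arrays it was at log2 ratios of -2.24, -1.93, -2.02 and -1.61. SLC16A1, the transporter MCT1, had log2 ratios of -1.30 on MIA2 and 1.21 on TANGO, and BSG, the chaperone of these transporters, 1.37 on TANGO. SLC2A12, a glucose transporter, was at -1.16 on MIA2. The list of 8 had 3 of 4 measured genes lower on MIA2, 2 of 5 higher and 1 lower on TANGO, and 1 of 5 lower on both MATE2 and LEMD1. Of all named genes 5.2%, 9.09%, 11.7% and 3.98% were lower on these 4 arrays, and 5.57% were higher on TANGO. The medians of the list were -0.31, -1.23, 0.49, -0.31 and -0.90 from MIA to LEMD1, each over 4 or 5 genes. No probe is named here for SLC2A3 or LDHB.

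Of 15 genes of pyruvate fate, MPC2, a subunit of the mitochondrial pyruvate carrier, was the one called, at 764 on the array labelled MIA2 siRNA against 255 on control. It was 1 of 8 measured there, beside 8.5% of all named genes. The medians of this list were -0.11, 0.19, -0.067, -0.30 and 0.026. Of 8 pentose phosphate genes, which give NADPH, TALDO1 alone was called, at 83.4 on TANGO against 243 on control. It was 1 of 5 measured there, beside 14.7% of all named genes. The medians of the pentose phosphate list were 0.0016, 0.14, -0.082, -0.17 and 0.088.

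Among 14 HIF subunits and oxygen sensors the prolyl hydroxylase gene EGLN3, itself a hypoxia gene, was higher on 4 arrays. It was at 207 on control, 181 on MIA, 565 on MIA2, 1166 on TANGO, 666 on MATE2 and 457 on LEMD1, with log2 ratios of 1.45, 2.49, 1.68 and 1.14 on the last 4. EGLN1, the main oxygen sensor of the family, was at least 2-fold lower on MATE2 and on no other array by either probe, at 175 against 636 on control by the brighter probe and 66.4 against 214 by the other. VHL had a log2 ratio of 1.03 on TANGO and 0.26 on MATE2. EPAS1, which encodes HIF-2 alpha, was at -0.37 on TANGO and -0.60 on MATE2 by its brightest probe, at 0.16 and 0.29 by the next and at -0.36 and -0.35 by the dimmest, and no probe is named here for HIF1A. Of 11 measured genes of the list, 1 was higher on MIA2, beside 3.3% of all named genes, and 1 on LEMD1, beside 2.03%. On TANGO 2 were higher, beside 5.57%. On MATE2 1 was higher and 1 lower, beside 5.93% and 11.7%. With so few genes these counts are small. The medians of the list were -0.10, 0.19, 0.23, 0.16 and 0.16 over 11 measured genes.

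Of 37 other HIF target genes, 31 to 33 were measured on each siRNA array. On MIA2 2 of 32 were higher and 1 lower, beside 3.3% and 5.2% of all named genes. On TANGO 5 of 31 were higher and 2 lower, beside 5.57% and 9.09%. On MATE2 4 of 33 were higher and 4 lower, beside 5.93% and 11.7%. On LEMD1 0 of 31 were higher and 2 lower, beside 2.03% and 3.98%. VEGFA, the vascular growth factor, was at 76.5 on control, 277 on TANGO and 219 on MATE2, log2 ratios of 1.86 and 1.51. BHLHE40, a transcription repressor, was at 1.72 and 1.50 on these arrays, and STC2, a secreted glycoprotein, at 1.24 and 3.85. On MATE2 the lower genes were HILPDA, a lipid droplet protein gene, at -1.67, ZNF395 at -2.05, AK4, a mitochondrial adenylate kinase, at -1.52 and P4HA1, a collagen prolyl hydroxylase, at -1.05. The second probes of HILPDA and ZNF395 were at 0.34 and 0.62 there, while the remaining AK4 probes were at -2.51 and 0.22. IGFBP3, which binds insulin-like growth factors, was at -1.55 on MIA2, -2.42 on TANGO and -1.57 on LEMD1. The medians of the list were -0.11, 0.17, -0.028, -0.011 and 0.079.

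The hypoxia genes named as changed on the array labelled MATE2 siRNA lay on both sides of control. By the brightest probe of each gene, LDHA, BNIP3, HILPDA, AK4, ZNF395, P4HA1 and EGLN1 were at least 2-fold below control, and NDRG1, EGLN3, VEGFA, BHLHE40 and STC2 at least 2-fold above it. On the array labelled TANGO siRNA none of the former was below control by 2-fold, and the latter were above control by at least 2-fold. Of all named genes 9.09% were lower and 5.57% higher on TANGO. The share of all genes called on MATE2 that were also called on TANGO was not counted. Most of these genes were named because they were past 2-fold. A HIF target counted as higher on MATE2 is not reported here, so the latter are not the whole set. DDIT4, a stress gene, at 1.52 and EFNA1, an ephrin ligand, at 1.36 were higher on TANGO, and ADM, adrenomedullin, was at -1.21 there and at 1.37 on MIA2. AK4, DDIT4, ADM, EFNA1 and P4HA1 are beyond the 6 largest of their list and were added after their values were seen. STC2, IGFBP3, ZNF395, BHLHE40 and HILPDA were likewise named by the size of their change. The second DDIT4 probe was at -0.17 on TANGO, and the second ZNF395 probe was at 1.36 there.

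**Figure D4:**
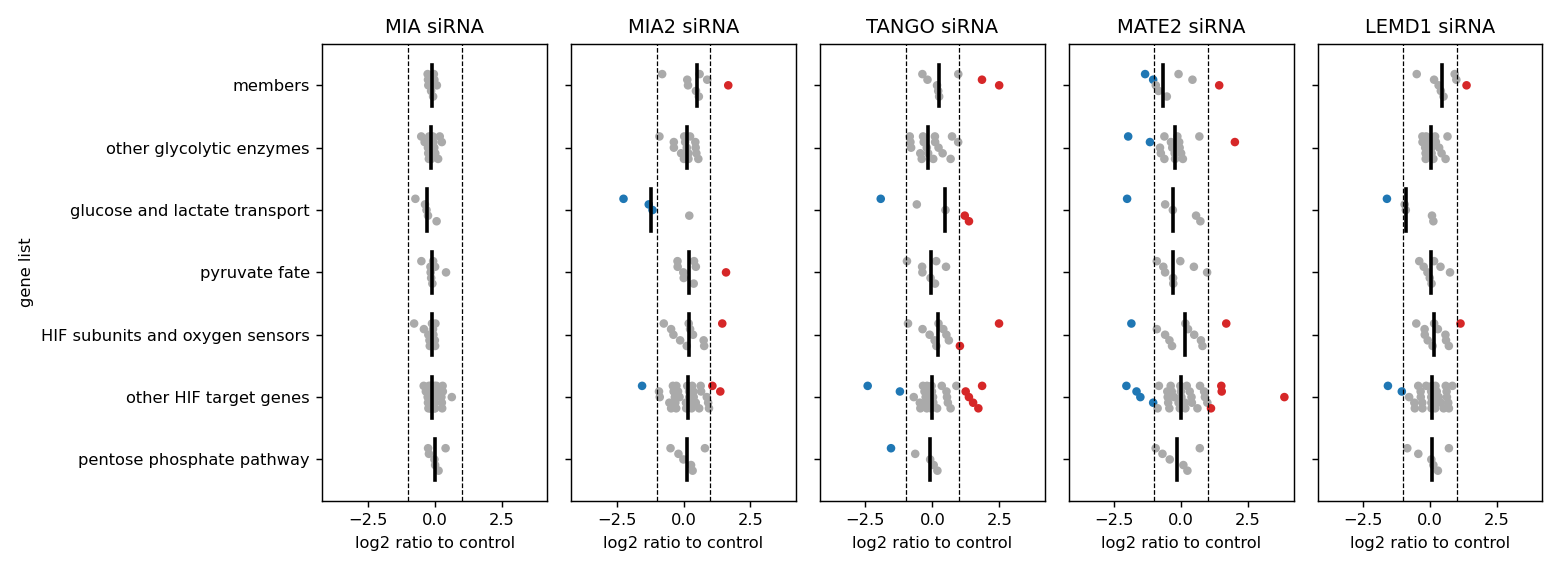
Log2 ratio to control (x axis) of each gene with good spots on both arrays in the members and 6 other lists (y axis), 1 panel per siRNA array. Points are red at least 2-fold above control, blue at least 2-fold below and grey between, a black bar is the median of a list, and the 2-fold limits are dashed. The HIF target list has 4 red and 4 blue points on the array labelled MATE2 siRNA, with a median of -0.011.

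For each member called changed, the named genes with the most similar pattern were taken among 11481 genes with good spots on all 6 arrays, by the mean absolute difference of the 5 log2 ratios to control. For LDHA these were MBD2, CPOX and CACUL1, with differences of 0.080, 0.084 and 0.095, and for NDRG1 they were NDUFC2, ANXA1 and TINCR, with 0.10, 0.11 and 0.15. For BNIP3 they were FEM1B, MYLIP and VTI1B, with 0.22, 0.23 and 0.25. For SLC2A1 they were ABLIM1, NHS and VAV3, with 0.27, 0.28 and 0.29. All these ratios share the control array.

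The 7 changes called among the members held their direction under every alternative processing and comparator that gave a value. Keeping saturated spots or accepting a single good spot could not alter these ratios. The mean of good probes could not where 1 probe was good, as for SLC2A1, NDRG1 and BNIP3 on MIA2. The second BNIP3 probe, lower on MIA2, was near background there and did not enter. SLC2A1 on TANGO, at a log2 ratio of 1.999 to 2.75, and BNIP3 on MIA2, at 1.22 to 1.89, were past 2-fold in all alternatives with a value. BNIP3 on MATE2, at -1.05, was between -0.89 and -0.92 with normexp, without background correction and with 50 added to the signal. LDHA on MATE2 was at -0.93 as the mean of its probes. Against the median of the other 4 siRNA arrays in place of control, NDRG1 was at 0.95 on TANGO and 0.52 on MATE2, and SLC2A1 was at 0.87 on LEMD1, all under 2-fold.

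**Figure D5:**
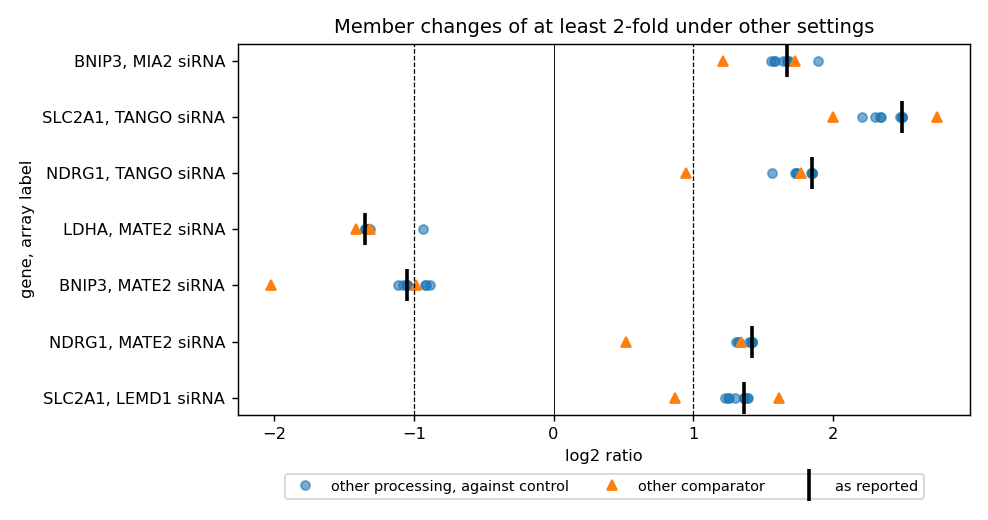
Log2 ratio (x axis) of the 7 member changes of at least 2-fold (y axis, gene and array label) as reported (black bars), under other processing against control (blue circles) and against another comparator (orange triangles). The 2-fold limits are dashed. BNIP3 on the array labelled MATE2 siRNA straddles the line, from -2.02 to -0.89, and SLC2A1 on that labelled TANGO siRNA stays at 1.999 or above.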

How the data were processed

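Expression was measured in HSC3 cells on 6 CodeLink arrays, 1 per label. The deposited scanner intensity is the mean of a spot after subtraction of the median local background, exported by the authors with CodeLink Expression Analysis, and this was checked on the unmasked spots within 0.0001. A deposited table of intensities, quantile normalized by the authors with the Microarray Data Analysis Tool, was used as an alternative.

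Of 53423 gene probes, 320 masked on an array were left out. The others were set to 1 distribution over the 6 arrays by quantile normalization, and log2 was taken after raising values below 1 to 1. Spots with a good flag were compared. A saturated spot gave no ratio, and a near-background spot a bound from the higher of its signal and the lowest good signal of its array. The brightest good probe by mean log2 signal over the arrays stood for a gene. Probes were named by the platform table where it gives 1 gene (23311), brought to current symbols by gene ID, or by accession through RefSeq (649). Another 898 carry several genes and 28245 none, and these were not named.

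All members were named. Of the other lists, genes at least 2-fold changed on an array were named, at most the 6 largest of a list, with HIF1A, EPAS1, VHL, EGLN1, EGLN3, VEGFA, GAPDH, PKM, SLC2A3 and LDHB in any case, 3 similar genes per changed member and the siRNA targets. A gene of these lists is counted but not reported here. The members and lists were chosen with earlier results of these data known. With 1 array per label no test was run. The precision is limited by the number of arrays, and the depth of an array is its signal over background. The calling rule was run on simulated signals with every spot taken as good and only bright probes changed. That run checked the code and was no test of these arrays. Alternatives changed the normalization, the background correction (normexp of limma 3.58.1, offset 50), the flags, the probe of a gene and the comparator. Python 3.11.15, numpy 2.4.6, pandas 2.3.3 and R 4.3.3 were used.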

Additional observations from a re-analysis of the deposited data

How the results depend on the processing

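No paired analysis was possible because each label has 1 array and the groups share only the number 1. With 1 array per label, no replicate could be left out. A ratio or median was counted as moved where it shifted by more than the robust SD over all genes allows (for a median, scaled to its number of genes), which is not a replicate SD and decided no call. Of the 7 member changes of at least 2-fold none changed sign under 11 alternatives, some of which could not alter a member ratio. Of the 11, quantile normalization of 4 arrays gives no value for TANGO and MATE2 and the MIA comparator none for MIA. Set against the MIA array, BNIP3 on MATE2 was at -0.99. The median of the other 4 siRNA arrays, which took 3 member changes under 2-fold, carries changes shared by the arrays.

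With median scaling 2 members were changed on MIA2 and the median of the members on LEMD1 was 0.25. Median scaling moved the median of all genes on TANGO to -0.12. With the deposited table, and against the MIA array, 2 members were changed on LEMD1. Against the MIA array the median of the members on MATE2 was -0.27 and 5 other pathway genes were changed on MIA2. Against the median of the other 4 siRNA arrays, 3 members and 3 other pathway genes were changed on MIA, with a member median of -0.41, 5 other pathway genes on MIA2, 1 member on TANGO, 9 other pathway genes on MATE2, and 0 members and 2 other pathway genes on LEMD1. With the 3 settings that raise low signals (normexp, uncorrected signals and 50 added), 2 other pathway genes were changed on LEMD1, and where a single good spot was enough 8 were. In all, 18 counts and medians moved and 138 did not. A count was marked as moved by its proportional change, or where it went to or from 0, without use of the robust SD. A change from 1 to 2 members was enough. Over all named genes, 84, 1061, 1840, 2216 and 778 were changed from MIA to LEMD1. The settings that raise low signals gave 16 to 23, 515 to 588, 1007 to 1108, 1254 to 1407 and 392 to 441, a single good spot 424, 1661, 2842, 3250 and 1283, and the median of the other 4 arrays 440, 463, 1251, 1447 and 426. Against the MIA array 701 were changed on MIA2. What depth limits is CA9, near background on control, and PDK1, at a low signal.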
